A study of Mus musculus with 8 samples.

Results

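Carriers of the mitochondrial inner membrane and uncoupling proteins were followed through an RNA-Seq comparison of the kidney cortex of aged and young mice. The set held every gene whose symbol is Slc25a followed by a number, 44 in all, together with Ucp1, Ucp2 and Ucp3. These 47 genes were chosen by name from the 22609 genes in the count tables, so no measured value entered the choice. A change with age was read for the 41 genes that had at least 10 counts in 4 or more libraries, and the other 6 genes are given by their counts. The aged group was 4 male C57BL6 mice labelled as 30 months old and the young group was 4 male C57BL6 mice labelled as 5 months old. The labels name no altered allele in either group, the mice received no treatment, and each mouse gave 1 library.

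The mitochondrial inner membrane is closed to most metabolites, and the Slc25 carriers are the family of small membrane proteins that exchange ADP for ATP, phosphate, di- and tricarboxylates, amino acids, acylcarnitines, nucleotides, cofactors and metals across it. The uncoupling proteins belong to the same family. Ucp1 lets protons return to the matrix without making ATP and gives brown fat its heat, whereas Ucp2 and Ucp3 are not heat producers of that kind. The kidney cortex is mostly proximal tubule, a cell type packed with mitochondria that burns fatty acids, glutamine and lactate to drive reabsorption.

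Counted reads ranged from 14820804 to 19018543 in the aged libraries and from 15152597 to 19821429 in the young libraries. Reads that overlapped no annotated feature in the strand-specific counting were 22.6% to 29.9% of all reads in aged mice and 19.95% to 25.1% in young mice. Aged mouse 1 stood apart from the other 7 libraries. On the first principal component of the 13944 genes tested, which held 48.1% of the variance, it lay at -71.5, while the other aged mice lay between -16.3 and 2.26 and the young mice between 21.6 and 26.2. Results that rest on this mouse are therefore given with and without it. Tissue from whole cortex was sequenced, so fewer cells of a type and less RNA per cell cannot be told apart.

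The 47 genes of the family received 0.462% ± 0.0309 (SD, n = 4) of counted reads in aged mice and 0.457% ± 0.0157 in young mice, and the ranges overlapped. Aged mouse 1 was the highest of the 8 at 0.507%, and the other aged mice had 0.447% ± 0.00647 (SD, n = 3). As the sum of TMM-scaled CPM (counts relative to the size of the library, with a scaling factor for composition) the family had 4739 in aged mouse 1, 4174 to 4500 in aged mice 2 to 4 and 4579 to 4946 in young mice. On that scale aged mice 2 to 4 were below every young mouse and aged mouse 1 lay within the young range. The ADP/ATP carriers Slc25a4 and Slc25a5 and the phosphate carrier Slc25a3, which together feed ATP synthase, held 28.8% to 35.1% of the family's reads in aged mice and 28.8% to 31.9% in young mice. Levels of different genes were compared as TMM-scaled CPM divided by transcript length in kilobases. On this scale Slc25a5 was highest, at 493 ± 20.1 in aged and 504 ± 8.59 in young mice, and Slc25a3 followed at 433 ± 45.3 and 471 ± 7.55. The glutathione carrier Slc25a39 followed with 259 ± 38.7 in aged and 331 ± 12.4 in young mice. The dicarboxylate carrier Slc25a10 was next, at 162 ± 45.1 and 190 ± 11.4, and then Slc25a4, at 119 ± 10.6 and 108 ± 9.24. The ornithine/citrulline carrier Slc25a15 had 74.9 ± 8.13 and 78.6 ± 5.35, and the oxoglutarate/malate carrier Slc25a11 had 66.2 ± 11.7 and 75.3 ± 3.10. The peroxisomal carrier Slc25a17 (60.3 ± 11.5 and 66.03 ± 8.44), the kidney carrier Slc25a30 (70.7 ± 22.8 and 48.1 ± 4.63) and the citrate carrier Slc25a1 (54.1 ± 9.69 and 57.5 ± 1.63) were near them. The ranges of these 5 genes overlapped in aged mice, whereas in young mice Slc25a30 lay below the other 4 in every mouse and Slc25a1 below Slc25a15 and Slc25a11.

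**Figure D1:**
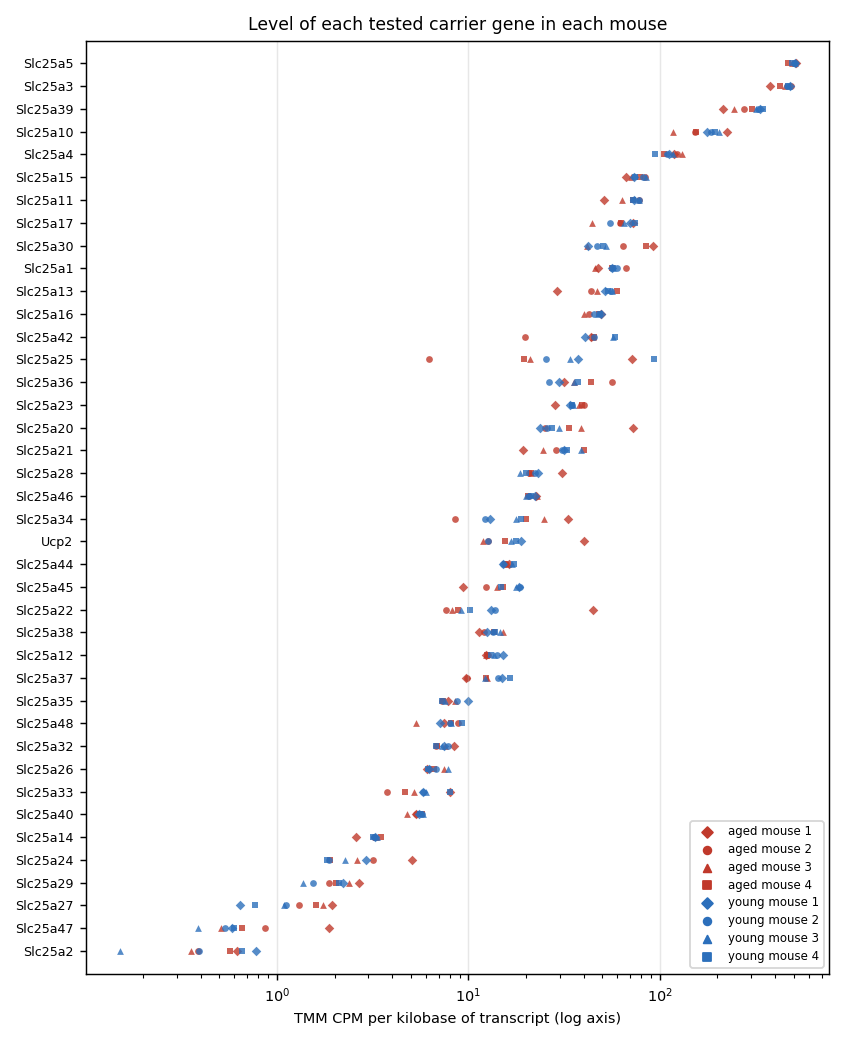
Level of 40 of the 41 tested carrier genes in each of the 8 mice, as TMM CPM per kilobase of transcript on a log axis; each point is 1 mouse, red for aged and blue for young, with a shape for the mouse number. Slc25a5 and Slc25a3 sit highest, and the red diamond of aged mouse 1 lies far to the right of the other points for Slc25a22, Ucp2 and Slc25a20.

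Among the 41 genes, 0 passed an adjusted p of 0.05 between aged and young mice in edgeR's quasi-likelihood test, against 2.95% of the 13944 genes tested (1.51% higher and 1.44% lower in aged mice). With a fold over 1.5 as well, 0 passed, against 2.06% of all genes. At an unadjusted p under 0.05 there were 8 of 41 carrier genes, or 19.5%, against 25.5% of all genes. Of the 8, 3 were higher in aged mice, against 13.4% of all genes, and 5 were lower, against 12.1%. DESeq2 called 3 carrier genes, where it called 12.1% of all genes, and limma-voom with sample quality weights called 1, where it called 6.44%. Without aged mouse 1, 1 carrier gene passed in edgeR, where 5.83% of all genes passed. The 4 aged mice all lay on 1 side of the 4 young mice for 4 carrier genes, or 9.76%, against 18.9% of all genes. In 1 of these 4 the aged mice were higher, against 8.85% of all genes, and in 3 they were lower, against 10%. The median log2 fold change (aged minus young) was -0.06 over the carrier genes and 0.03 over all genes. For 20 of the 41 genes the 95% interval of the change lay inside 1.5-fold in either direction, and for 30 it lay inside 2-fold. The 11 genes with a wider interval included Slc25a2, Slc25a20, Slc25a22, Slc25a24, Slc25a25, Slc25a27, Slc25a30, Slc25a34, Slc25a47 and Ucp2, and for these a 2-fold change in at least 1 direction lay within the interval.

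**Figure D2:**
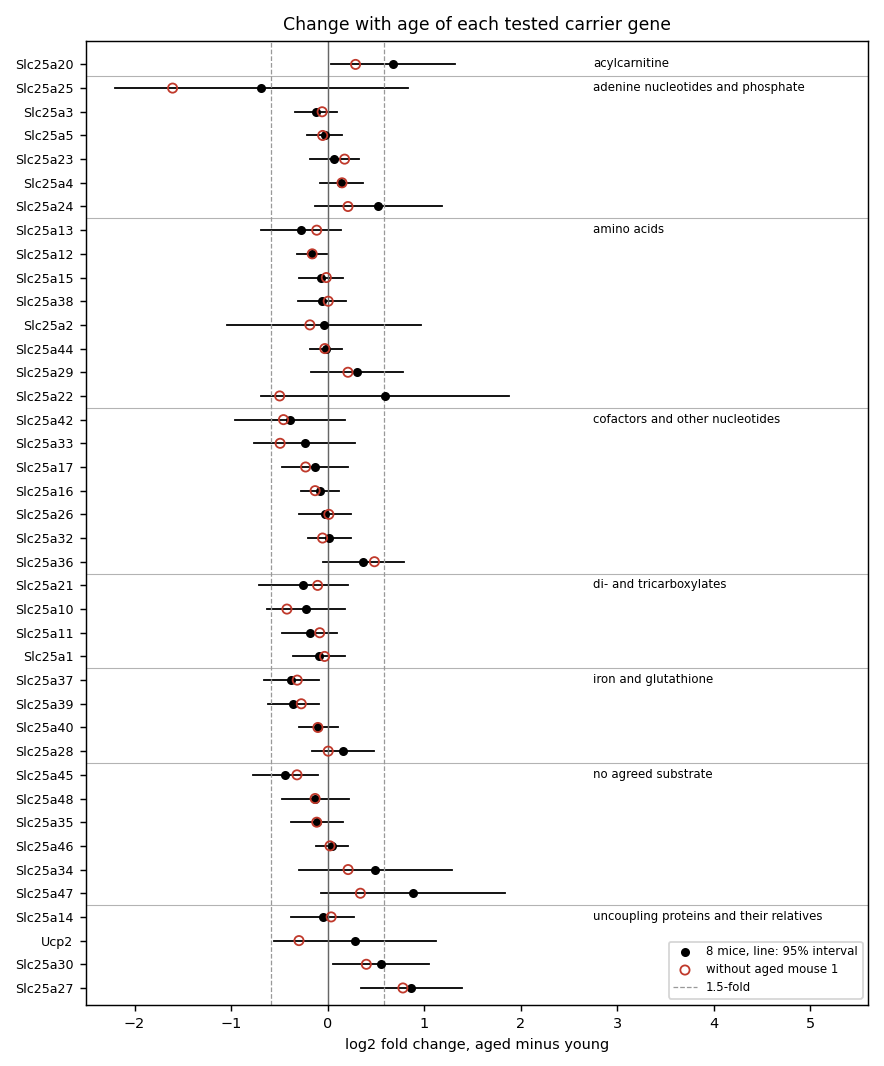
Change with age of 40 of the 41 tested carrier genes, as log2 fold change of aged minus young, grouped by substrate; black points are fits on all 8 mice with lines for the 95% interval, red circles are fits without aged mouse 1, and dashed lines mark 1.5-fold. Slc25a27 lies farthest to the right of the genes whose groups did not overlap, at 0.86, and the red circles of Slc25a22 and Ucp2 lie on the other side of 0 from their black points.

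The uncoupling proteins and their relatives held the gene with the smallest p of the set. Slc25a27, also called UCP4 and best known from brain, is encoded at chr17:43778849-43804125 on the minus strand of mm9. Its CPM was 5.21, 3.51, 4.70 and 4.30 in aged mice and 1.73, 3.01, 2.92 and 2.07 in young mice. Every aged mouse was above every young mouse, although the whole signal came from 28 to 106 reads per library. The log2 fold change was 0.86 ± 0.23 (SE) with an adjusted p of 0.0730 in edgeR, and 0.78 with an adjusted p of 0.0812 without aged mouse 1. DESeq2 gave an adjusted p of 0.0134 for the same gene, and edgeR with scaling by library size alone gave 0.0490, where 5.57% of all genes passed. Slc25a30, named kidney mitochondrial carrier protein 1 after the organ where it is abundant, was the highest of this group per kilobase. Its CPM was 158, 109, 71.0 and 145 in aged mice and 72.0, 79.8, 89.8 and 86.7 in young mice, so 3 aged mice were above all young mice and aged mouse 3 was below them. The change was 0.56 ± 0.22 with an adjusted p of 0.159, and 0.40 with an adjusted p of 0.248 without aged mouse 1. Slc25a14, also called UCP5, differed by -0.05 with a 95% interval from -0.38 to 0.28.

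Ucp1 and Ucp3 were near the limit of detection in every mouse but 1. Ucp1 had 345 counts in aged mouse 1, then 4, 2 and 1 in the other aged mice, and 0 in all 4 young mice, where a count of 0 allows at most 0.159 to 0.204 CPM (3 counts, counting error only). Ucp3, the form known from muscle and brown fat, had 89, 5, 8 and 7 counts in aged mice and 2, 0, 0 and 2 in young mice. Neither gene entered the test, since neither reached 10 counts in 4 libraries. The fat genes Cidea, Elovl3 and Cox8b had 548, 71 and 193 counts in aged mouse 1, against at most 20, 2 and 10 in any other mouse, and the fat hormone gene Adipoq had 766 counts there against 3 to 154 in the others. These are part of a list of 9 fat markers that did not all go the same way. Plin1, Fabp4 and Ppp1r3c were also higher in aged mouse 1 than the mean of the other aged mice. Lep was lower (0.098 against 0.79 CPM) and Cox7a1 was level (6.58 CPM in both). Summed over 9 fat markers the level was 355 CPM in aged mouse 1, 40.7 to 100.4 CPM in aged mice 2 to 4 and 34.0 to 54.9 CPM in young mice. None of these 9 markers was at 0 in every mouse, 5 of them were tested and 0 passed the adjusted p. At an unadjusted p under 0.05, 3 of them were higher in aged mice, against 13.4% of all genes. The part of fat tissue in the Ucp1 and Ucp3 counts was not tested.

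Ucp2, found in many tissues and in immune cells, was the one classical uncoupling protein at a measurable level in all mice. Its CPM was 159.6, 50.5, 47.5 and 62.2 in aged mice and 75.02, 50.7, 66.5 and 70.5 in young mice. Aged mouse 1 was above every other mouse and the other aged mice overlapped with the young. The log2 fold change was 0.29 ± 0.37 (adjusted p = 0.650, edgeR) with all mice and -0.30 ± 0.14 (adjusted p = 0.231) without aged mouse 1, so the direction was set by that library. Leukocyte markers had a summed level of 239.8 CPM in aged mouse 1, 255 to 411 CPM in the other aged mice and 231 to 331 CPM in young mice, with 0 of 11 absent from all mice. Of these 11 markers 9 were higher and 2 were lower in aged mice by point estimate, with a median log2 fold change of 0.48. The antigen presentation gene Cd74 differed by 0.48 ± 0.16 (adjusted p = 0.112, edgeR). Of the 11, 1 passed the adjusted p, against 2.95% of all genes. It was Csf1r, the receptor of macrophage colony-stimulating factor, which fell by 1.00 on the log2 scale (adjusted p = 0.0472, edgeR). The part of leukocytes in the Ucp2 values was not tested.

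**Figure D3:**
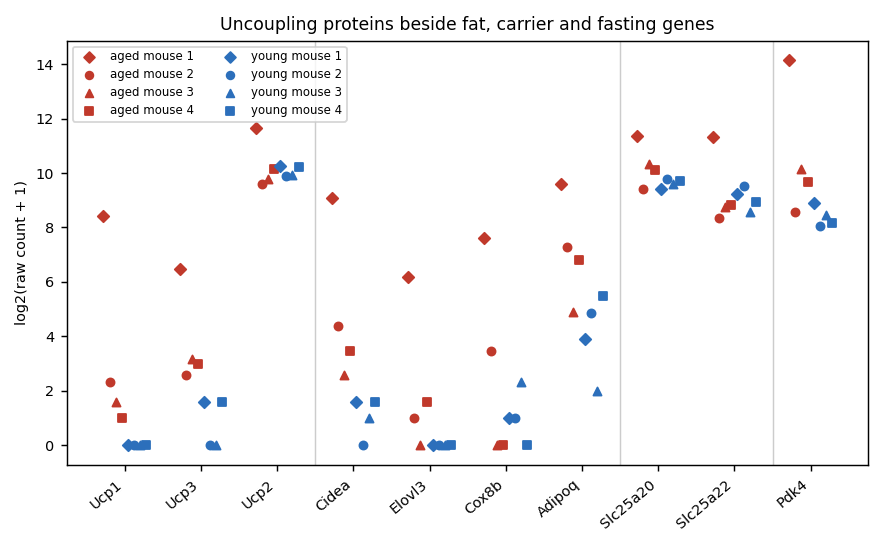
Raw counts on a log2(count + 1) axis for the 3 uncoupling proteins, 4 fat genes, 2 carrier genes and Pdk4, a gene of the fasting response, with 1 point per mouse, red for aged and blue for young, and a diamond for mouse 1. Aged mouse 1 is the highest point in all 10 genes, and Ucp1 is at 0 in the 4 young mice. The fat markers Lep and Cox7a1, not shown, were not higher in aged mouse 1 than the mean of the other aged mice.

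The ADP/ATP, phosphate and ATP-Mg carriers showed the steadiest and the least steady genes side by side. Slc25a5, the widely expressed ADP/ATP carrier, had 636, 622, 609 and 577 CPM in aged mice and 629, 629.7, 632 and 609 CPM in young mice. The groups overlapped, and the change of -0.03 had a 95% interval from -0.21 to 0.15. Its muscle-type relative Slc25a4 had 227, 237, 251 and 203 CPM in aged mice and 214, 211, 224 and 183 CPM in young mice, again with overlap (0.14 ± 0.10, adjusted p = 0.370, edgeR). Slc25a3 ranged from 503 to 647 CPM in aged and from 618 to 641 CPM in young mice, and differed by -0.12 ± 0.10 (adjusted p = 0.455), and by -0.06 without aged mouse 1. The germ-cell form Slc25a31 had at most 3 counts in any library, and Slc25a41 had 0 counts in all 8.

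The calcium-regulated ATP-Mg/phosphate carriers, which set the adenine nucleotide pool of the matrix, differed in their spread. Slc25a23 had 94.97, 135, 128 and 133 CPM in aged mice and 114, 117, 119 and 117 CPM in young mice. For Slc25a23, aged mouse 1 was below every young mouse and the other aged mice were above them. Its change was 0.07 ± 0.11 (adjusted p = 0.717, edgeR) with all mice and 0.18 ± 0.06 (adjusted p = 0.101) without aged mouse 1. Slc25a25 had 235, 20.6, 69.1 and 64.1 CPM in aged mice and 123, 84.3, 112 and 306 CPM in young mice. The groups overlapped, and aged mouse 2 was lowest and young mouse 4 highest of the 8. The change of Slc25a25 was -0.69 ± 0.67 (adjusted p = 0.538) with all mice and -1.61 ± 0.53 (adjusted p = 0.102) without aged mouse 1. Slc25a24 differed by 0.53 ± 0.29 (adjusted p = 0.283), and by 0.21 without aged mouse 1. With all mice, none of the 6 tested genes in this group passed an unadjusted p of 0.05. Without aged mouse 1, Slc25a23 and Slc25a25 did (unadjusted p = 0.0143 and 0.0148, edgeR), where 26.5% of all genes did.

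RefSeq promoter windows, from 250 bases before to 50 bases after an annotated start in GRCm38.p6, were matched by symbol for 37 of the 47 genes, with 46 windows in all. The build differs from the mm9 build of the counts, and the windows were used for their letters alone. The cAMP response motif TGACGTCA, read on both strands, was in 2 of the 46 windows and in 1.79% of the 32851 windows of all genes. One of the 2 belongs to the third of 3 listed starts of Slc25a25, at chr2:32424017-32424316 on the minus strand, and it is shown because Slc25a25 departed by more than 1 log2 unit from its age group in 3 mice. The other belongs to Slc25a36, a pyrimidine nucleotide carrier, at chr9:97110992-97111291 on the minus strand. That window also holds the E-box CACGTG, as does the window of the related carrier Slc25a33 at chr4:149774218-149774517 on the minus strand. The window of the acylcarnitine carrier Slc25a20, at chr9:108661886-108662185 on the plus strand, is printed as one without a match to any motif searched. Capitals mark the matches, and each sequence runs 5′ to 3′ on the strand of its gene.
Slc25a25: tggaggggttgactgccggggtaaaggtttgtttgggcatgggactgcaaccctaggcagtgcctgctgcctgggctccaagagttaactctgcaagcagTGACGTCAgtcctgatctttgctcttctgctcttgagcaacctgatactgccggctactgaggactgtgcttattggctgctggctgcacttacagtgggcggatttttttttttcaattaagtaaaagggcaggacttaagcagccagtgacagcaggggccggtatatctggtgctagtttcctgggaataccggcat
Slc25a36: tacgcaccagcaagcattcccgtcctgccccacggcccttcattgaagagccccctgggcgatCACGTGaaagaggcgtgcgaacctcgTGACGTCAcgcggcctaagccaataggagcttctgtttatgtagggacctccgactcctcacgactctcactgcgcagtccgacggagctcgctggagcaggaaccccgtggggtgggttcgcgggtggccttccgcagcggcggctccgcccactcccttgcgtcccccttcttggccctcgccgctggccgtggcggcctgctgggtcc
Slc25a33: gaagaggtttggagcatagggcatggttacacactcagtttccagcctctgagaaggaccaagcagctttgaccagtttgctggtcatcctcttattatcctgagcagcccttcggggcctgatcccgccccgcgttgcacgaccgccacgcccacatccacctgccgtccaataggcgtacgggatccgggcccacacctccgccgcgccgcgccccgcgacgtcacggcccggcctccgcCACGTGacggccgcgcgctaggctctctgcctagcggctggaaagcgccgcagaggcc
Slc25a20: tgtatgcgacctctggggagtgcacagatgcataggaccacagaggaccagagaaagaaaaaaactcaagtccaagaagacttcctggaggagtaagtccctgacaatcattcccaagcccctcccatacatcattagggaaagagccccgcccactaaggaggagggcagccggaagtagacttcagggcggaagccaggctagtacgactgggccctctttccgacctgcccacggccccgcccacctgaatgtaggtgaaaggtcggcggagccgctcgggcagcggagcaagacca

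The E-box CACGTG was in 17.4% of the 46 windows and in 7.15% of all windows, as a description with no test. The 7 genes that hold it were Slc25a1, Slc25a13, Slc25a14, Slc25a15, Slc25a31, Slc25a33 and Slc25a36. Of the 6 that were tested, 1 was higher and 5 were lower in aged mice, between -0.28 and 0.37. With all mice, 0 of these 6 had an unadjusted p under 0.05 in edgeR, and without aged mouse 1 Slc25a33 and Slc25a36 did. The DR1 direct repeat, the estrogen-related receptor motif TCAAGGTCA, the palindromic NRF1 motif and the palindromic glucocorticoid response motif, all read on both strands, matched 0 of the 46 windows. Over all windows they matched 0.0396%, 0.423%, 0.971% and 0.0487%. No match says only that these letters were not in these windows.

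The carriers of di- and tricarboxylates were all lower in aged mice by point estimate, except that Slc25a1 was at 0.018 with scaling by library size alone. With all mice, 0 of 4 passed an unadjusted p of 0.05 in edgeR, and without aged mouse 1 Slc25a10 did. Slc25a10, which exchanges malate or succinate for phosphate, had 455, 308, 236 and 314 CPM in aged mice and 358, 373, 411 and 393 CPM in young mice. Aged mouse 1 was the highest of the 8 and the other 3 aged mice were the lowest 3. The change was -0.22 ± 0.18 (adjusted p = 0.442, edgeR) with all mice and -0.42 ± 0.11 (adjusted p = 0.0586) without aged mouse 1. Slc25a11, which exchanges oxoglutarate for malate, differed by -0.19 ± 0.12 (adjusted p = 0.360), and by -0.08 without aged mouse 1. The citrate carrier Slc25a1 and the oxodicarboxylate carrier Slc25a21 differed by -0.09 ± 0.12 and -0.25 ± 0.20, and by -0.03 and -0.10 without aged mouse 1.

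Among 8 tested amino acid carriers, 1 had separated groups. Slc25a12, the aspartate/glutamate carrier known as aralar and a part of the malate-aspartate shuttle, is encoded at chr2:71109120-71205806 on the minus strand of mm9. It had 78.5, 80.7, 78.2 and 79.3 CPM in aged mice and 96.0, 89.3, 86.6 and 83.0 CPM in young mice. All aged mice were below all young mice, and the aged mice were within 3 CPM of each other. The change was -0.16 ± 0.07 (adjusted p = 0.176, edgeR), and -0.16 without aged mouse 1. Its liver-type relative Slc25a13, known as citrin, ranged from 90.3 to 186 CPM in aged and from 161 to 175 CPM in young mice, and differed by -0.28 ± 0.18 (adjusted p = 0.364). Its change was -0.11 (adjusted p = 0.528, edgeR) without aged mouse 1 and -0.44 (adjusted p = 0.119) without aged mouse 4. Slc25a15, the highest of the group per kilobase, had 229, 290.5, 243 and 273 CPM in aged mice and 254, 283, 291 and 257 CPM in young mice, with overlap and a change of -0.07 ± 0.10, or -0.01 without aged mouse 1.

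Slc25a22, a mitochondrial glutamate carrier, is singled out after its values were seen. It had 127, 21.4, 23.0 and 24.7 CPM in aged mice and 37.1, 38.6, 25.8 and 28.6 CPM in young mice. Aged mouse 1 was 5.49 times the mean of the other aged mice, and those 3 lay below all 4 young mice. The log2 fold change was 0.59 ± 0.57 (adjusted p = 0.530, edgeR) with all mice and -0.50 ± 0.15 (adjusted p = 0.0804) without aged mouse 1. The other glutamate carrier, Slc25a18, had at most 2 counts per library. The ornithine carrier Slc25a2 had 3 to 17 counts, and its 95% interval from -1.04 to 0.97 spanned about 2-fold in either direction. Slc25a29, Slc25a38 and Slc25a44 had edgeR adjusted p-values of 0.377, 0.759 and 0.901.

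Enzymes that work on either side of these carriers were read as a list of 12 genes of the malate-aspartate and citrate pathways. Of these, 2 passed the adjusted p, against 2.95% of all genes, and both were lower in aged mice, against 1.44% of all genes. Me1, the cytosolic malic enzyme, had 163 to 334 CPM in aged and 404 to 464 CPM in young mice and fell by 0.96 on the log2 scale (adjusted p = 0.0495, edgeR). The median of the 12 was -0.15. Of 6 tested genes of ornithine and polyamine metabolism 0 passed and 1 had an unadjusted p under 0.05, against 25.5% of all genes. Odc1, the first enzyme of polyamine synthesis, was at -1.81 ± 0.54 (adjusted p = 0.0898, edgeR), and the list median was -0.01.

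The carnitine/acylcarnitine carrier Slc25a20, which brings long-chain acylcarnitines to the matrix for oxidation, is encoded at chr9:108564429-108586972 on the plus strand of mm9. It had 129, 44.7, 69.1 and 59.8 CPM in aged mice and 42.0, 46.2, 52.8 and 48.8 CPM in young mice. Aged mice 1, 3 and 4 were above all young mice, by a wide margin in aged mouse 1 and a small one in the others, and aged mouse 2 lay within the young range. The change was 0.68 ± 0.28 (adjusted p = 0.179, edgeR) with all mice and 0.29 ± 0.14 (adjusted p = 0.235) without aged mouse 1. Of 15 tested genes of the carnitine shuttle and fatty acid oxidation, 0 passed the adjusted p and 13 were higher in aged mice by point estimate. At an unadjusted p under 0.05, 3 of the 15 were higher and 1 was lower, against 13.4% and 12.1% of all genes. Their summed level was 16420 CPM in aged mouse 1, 4633 to 6044 CPM in aged mice 2 to 4 and 5370 to 6456 CPM in young mice. Cpt1a and Cpt2, which act before and after Slc25a20, differed by 0.31 ± 0.23 and 0.02 ± 0.19 (adjusted p = 0.401 and 0.957, edgeR).

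Among the carriers of cofactors and nucleotides, 7 of the 8 tested genes had unadjusted p-values above 0.05 with all mice. Without aged mouse 1, Slc25a33 and Slc25a36 fell below 0.05 (unadjusted p = 0.0163 and 0.0187, edgeR). Slc25a17, the peroxisomal member of the family and the highest of the group per kilobase, had 120.3, 103, 74.2 and 105 CPM in aged mice and 116, 91.2, 109 and 124 CPM in young mice, with overlap. Slc25a36 had 100.4, 179, 113 and 139.5 CPM in aged mice and 95.05, 84.3, 113 and 119 CPM in young mice (0.37 ± 0.19, adjusted p = 0.243, edgeR). Its values are uncertain, because 39.6% of the 100-base windows of its transcript had a copy elsewhere in the genome at 98% identity. Slc25a33 had 15.2, 7.09, 9.78 and 8.83 CPM in aged mice and 10.9, 10.9, 11.3 and 15.2 CPM in young mice. Its change was -0.24 ± 0.23 with all mice and -0.49 ± 0.17 (adjusted p = 0.107) without aged mouse 1. The coenzyme A carrier Slc25a42 differed by -0.39 ± 0.25 (adjusted p = 0.348), with aged mouse 2 lowest at 63.4 CPM. Slc25a16, Slc25a26 and Slc25a32 had 95% intervals inside -0.30 to 0.24.

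Iron and glutathione carriers showed 1 gene with separated groups. Slc25a39, a carrier of glutathione, is encoded at chr11:102264299-102269260 on the minus strand of mm9 and was the third highest of the family per kilobase. It had 361, 465, 409.7 and 511 CPM in aged mice and 564, 546, 538 and 585 CPM in young mice. All aged mice were below all young mice. The change was -0.35 ± 0.12 (adjusted p = 0.111, edgeR), and -0.27 ± 0.09 (adjusted p = 0.101) without aged mouse 1. It passed in DESeq2 (adjusted p = 0.0317) and in edgeR without aged mouse 4 (adjusted p = 0.0462, where 7.83% of all genes passed). Its relative Slc25a40 had 14.8, 14.8, 13.4 and 15.9 CPM in aged mice and 15.3, 15.97, 16.1 and 15.5 CPM in young mice, a difference of -0.10 ± 0.09 (adjusted p = 0.508).

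The mitoferrins bring iron to the matrix for heme and iron-sulfur clusters. Slc25a37, mitoferrin 1, had 40.6, 41.1, 52.4 and 51.7 CPM in aged mice and 62.3, 59.3, 50.6 and 68.8 CPM in young mice. Young mouse 3 lay within the aged range and the other young mice were above it (-0.38 ± 0.13, adjusted p = 0.114, edgeR). Slc25a28, mitoferrin 2, had 46.5, 31.4, 32.2 and 32.3 CPM in aged mice and 35.0, 33.8, 28.1 and 30.5 CPM in young mice, with a change of 0.16 ± 0.14 with all mice and 0.01 ± 0.09 without aged mouse 1. Mitoferrin 1 is abundant in red cell precursors, and the 8 erythroid markers had a summed level of 10.2 to 26.2 CPM in aged and 16.7 to 34.1 CPM in young mice. Of these markers 4, the globin genes Hba-a1, Hba-a2, Hbb-b1 and Hbb-b2, were at 0 in every mouse, 3 were tested and 0 passed. The summed level thus rests on the other markers, among them Alas2 with 109 to 460 counts per library. Whether globin reads went uncounted because they were placed at more than 1 site was not tested, so the zeros are not read as absent globin RNA. Of 12 genes of heme and iron metabolism 0 passed the adjusted p, and the median was -0.22. At an unadjusted p under 0.05, 4 of the 12 were lower, against 12.1% of all genes. They included the cysteine desulfurase Nfs1, at -0.37 ± 0.09 (adjusted p = 0.0546, edgeR), and the heme enzyme Uros, at -0.75 ± 0.21 (adjusted p = 0.0799).

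Members without an agreed substrate made up the rest. Slc25a45 ranged from 23.3 to 37.8 CPM in aged and from 36.9 to 46.2 CPM in young mice, with aged mouse 4 above the lowest young mouse (-0.44 ± 0.15, adjusted p = 0.116, edgeR). Slc25a46, which sits in the outer membrane and was the highest of the group per kilobase, had 98.9, 90.5, 99.8 and 89.8 CPM in aged mice and 97.3, 90.2, 87.1 and 92.8 CPM in young mice. Its 95% interval was from -0.12 to 0.21. Slc25a34 and Slc25a47 differed by 0.49 ± 0.35 and 0.88 ± 0.42, and by 0.21 and 0.34 without aged mouse 1. Slc25a35 and Slc25a48 differed by -0.11 and -0.13. Slc25a43 stayed under the filter, with 5, 6, 5 and 9 counts in aged mice and 20, 8, 11 and 14 in young mice.

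Aged mouse 1 departed from its group in more carrier genes than any other mouse. In this mouse 7 of the 41 genes lay over 1 log2 unit away from the average of aged mice 2 to 4, or 17.1%, against 10.7% of all genes tested. The 6 that were higher there were Slc25a22, Slc25a25, Ucp2, Slc25a47, Slc25a20 and Slc25a34, at 5.49, 4.58, 2.99, 2.76, 2.23 and 1.88 times the arithmetic mean CPM of the other aged mice, and 1 gene was lower. Departures were measured from the mean of log2 CPM, from which Slc25a34 lay 1.04 away. Aged mouse 2 departed in 3 genes, or 7.32% against 2.88% of all genes, with Slc25a25, Slc25a34 and Slc25a42 low. Aged mice 3 and 4 departed in 0, against 3.42% and 4.73% of all genes. Young mice 3 and 4 departed in 1 gene each, Slc25a2 and Slc25a25, or 2.44% against 0.968% and 0.997% of all genes. Leaving out aged mouse 1 turned the sign for 6 of 41 genes, Slc25a14, Slc25a22, Slc25a26, Slc25a32, Slc25a38 and Ucp2. It moved 4 genes by more than 0.5, Slc25a22, Slc25a25, Slc25a47 and Ucp2. Besides the 6 that turned, the log2 fold change grew by more than 1.5 times in 9 genes and shrank by more than 1.5 times in 12.

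**Figure D4:**
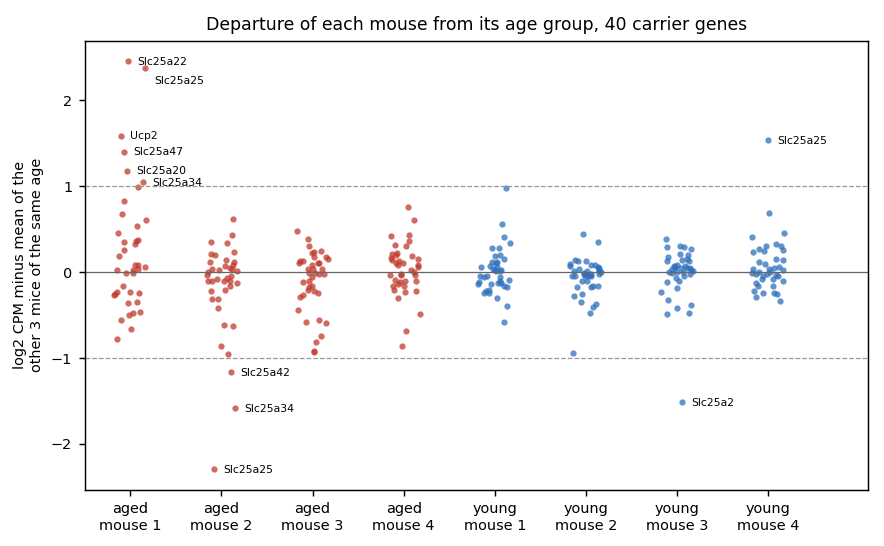
Log2 CPM of 40 of the 41 tested carrier genes in each mouse minus the mean of the other 3 mice of the same age, with 1 point per gene, red for aged and blue for young; genes beyond the dashed lines at 1 log2 unit are named. Aged mouse 1 has 6 named genes, aged mouse 2 has 3, young mice 3 and 4 have 1 each and the other mice have none.

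Other measures were extreme in the same mouse. The 10 genes of the glucocorticoid and fasting response summed to 6877 CPM in aged mouse 1, 1015 to 1647 CPM in the other aged mice and 1146 to 1277 CPM in young mice. Of these 10 genes 1 passed the adjusted p, against 2.95% of all genes. It was Zbtb16, a glucocorticoid-induced factor, with 149, 21.9, 40.7 and 37.6 CPM in aged and 5.92 to 9.0 CPM in young mice (3.00 ± 0.57, adjusted p = 0.0390, edgeR). Markers of the first and second proximal tubule segments summed to 18276 CPM in aged mouse 1, 28056 to 30496 CPM in the other aged mice and 26974 to 32392 CPM in young mice. The part of fasting, stress or tissue sampling in the carrier values of this mouse was not tested.

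Ratios of related carriers within each library need no scaling between libraries, and 7 pairs were compared by a two-sided exact permutation test with 70 orders of the mice, whose smallest p is 0.0286. After adjustment over the 7 pairs, 0 passed 0.05. With 4 mice per group a pair can pass only if most of the 7 pairs reach the smallest p together. The adjusted result therefore cannot decide about a single pair. The log2 ratio of Slc25a28 to Slc25a37 was -0.39 ± 0.42 (SD, n = 4) in aged and -0.92 ± 0.17 in young mice, and every aged mouse was above every young mouse (exact p = 0.0286, adjusted 0.100). The ratio of Slc25a39 to Slc25a40 was 4.88 ± 0.19 in aged and 5.15 ± 0.08 in young mice, and every aged mouse was below every young mouse (exact p = 0.0286, adjusted 0.100). Without aged mouse 1 the difference of the first pair went from 0.52 to 0.33 (exact p = 0.0286, adjusted 0.05) and that of the second from -0.27 to -0.17 (exact p = 0.0571, adjusted 0.08), with the groups still apart in both. The ratio of Slc25a4 to Slc25a5 was -1.41 ± 0.11 and -1.59 ± 0.10, with overlap (exact p = 0.0571, adjusted 0.133). The other 4 pairs had exact p-values between 0.229 and 0.943, and without aged mouse 1 the groups of 3 of them, Slc25a33 to Slc25a36, Slc25a10 to Slc25a11 and Slc25a23 to Slc25a25, no longer overlapped (exact p = 0.0286 each, the smallest possible, adjusted 0.05). The ratio of Slc25a33 to Slc25a36 is uncertain, because 39.6% of the 100-base windows of the Slc25a36 transcript had a copy elsewhere in the genome.

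**Figure D5:**
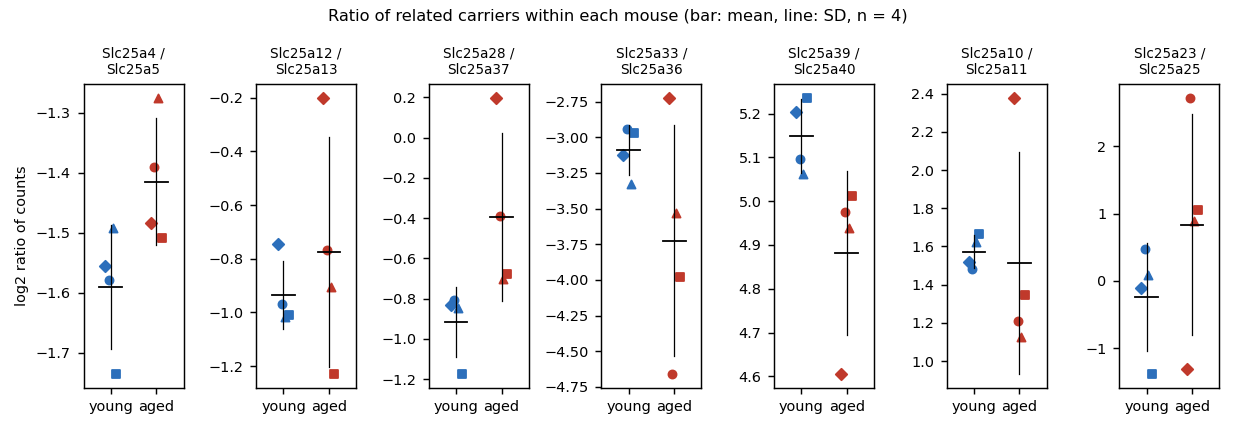
Log2 ratio of the counts of 2 related carriers within each mouse for 7 pairs, with 1 point per mouse, blue for young and red for aged, a bar for the mean and a line for the SD (n = 4); each panel has its own axis. The groups separate for Slc25a28 to Slc25a37 and for Slc25a39 to Slc25a40, and the diamond of aged mouse 1 lies apart from the other aged mice in several panels.

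Mitochondrial carriers and channels outside the naming rule were read beside the family. Of 20 tested genes, among them the pyruvate carrier, the sideroflexins, the voltage-dependent anion channels and the calcium uniporter, 0 passed the adjusted p. An unadjusted p under 0.05 was found for 5 of the 20, against 25.5% of all genes. The nearest was Letm1, an inner membrane ion exchanger, at -0.43 ± 0.10 (adjusted p = 0.0597, edgeR). Of 11 regulators of mitochondrial genes 0 passed and 3 had an unadjusted p under 0.05, against the same 25.5% of all genes. Esrra was at -0.48 ± 0.19 (adjusted p = 0.161, edgeR) and Ppargc1a at 0.25 ± 0.10 (adjusted p = 0.163).

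Markers of the cells in the cortex were read as further lists, and in each of them 0 genes passed the adjusted p apart from Csf1r among the leukocyte markers. For comparison, 25.5% of all genes tested had an unadjusted p under 0.05, and 12.1% of all genes did and were lower in aged mice. All 7 markers of the third proximal tubule segment were lower in aged mice by point estimate, 6 of them at an unadjusted p under 0.05, with a median of -0.97. Their summed level was 722 to 1810 CPM in aged and 1729 to 2420 CPM in young mice. Of the 10 markers of the first and second segments 2 had an unadjusted p under 0.05, as did 2 of 7 of the thick limb, 2 of 11 of the distal tubule and collecting duct, 1 of 9 of the glomerulus and endothelium and 1 of 4 tested for muscle. Their medians were 0.04, -0.30, -0.18, 0.03 and -0.02. None of the kidney markers was at 0 in every mouse. The part of the mix of tubule segments in the carrier values was not tested.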

How the data were processed

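RNA-Seq was done on kidney cortex of male C57BL6 mice, 4 aged and 4 young. According to the methods and the processing notes, the authors removed ribosomal RNA, made stranded libraries, aligned paired reads to mm9 with TopHat2 and counted them per RefSeq gene with HTSeq in reverse-stranded mode. The deposited values are raw counts per gene for each mouse, with no normalization, and the joint table held the same counts as the files of single mice. HTSeq's 5 rows that name no gene were left out; reads placed at more than 1 site were 34.3% to 39.1% of reads, and paralogs can lose reads this way. The labels give 30 months for the aged mice, and the methods give a somewhat higher mean.

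Counts were fitted with edgeR 4.0.16 (quasi-likelihood test, TMM scaling, no covariate, filterByExpr with a minimum of 10 counts), aged against young, with Benjamini-Hochberg adjustment over 13944 genes. CPM values are TMM-scaled, ± is the SD beside a mean and the SE beside a log2 fold change, and intervals are 95%. The pairs of related carriers were tested by exact permutation over the 8 mice. DESeq2 1.42.0, limma 3.58.1 (voom), other scalings and filters, a replicate block and each mouse left out were the alternatives. The fit was first tested on simulated data. Length per gene is that of the GENCODE transcript with the longest coding sequence in mm9, and copies were sought with BLAST 2.17.0. Across the 47 genes the coding length was 798 to 2034 nt, and 43 had no copied window.

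Genes given mouse by mouse were those with an unadjusted p under 0.05 and groups that do not overlap, the uncoupling proteins, the pairs described and the highest gene per kilobase in each substrate group. The genes and lists were chosen with earlier results of these data known. Replicates are separate mice, and precision is limited by 4 mice per group. Results on a few genes are not reported here.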

Additional observations from a re-analysis of the deposited data

Results flagged for a closer look

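In each age group of 4 mice, the gap between the most extreme mouse and its nearest neighbour was divided by the range of the group and compared with Dixon's 95% critical value for 4 values. Over 80 groups of 40 carrier genes, 6 were beyond it, where chance gives about 4.0 (1 in 20). Aged mouse 1 was the extreme mouse in 3 of them. It was highest for Slc25a22 (0.969, 127 CPM), Slc25a28 (0.941, 46.5 CPM) and Ucp2 (0.869, 159.6 CPM). Aged mouse 2 was lowest for Slc25a42 (0.94, 63.4 CPM). Young mouse 4 was highest for Slc25a33 (0.911, 15.2 CPM) and lowest for Slc25a5 (0.868, 609 CPM). For Slc25a5 the gap was small against the level of the gene, since all young mice lay between 609 and 632 CPM.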

How the results depend on the processing

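The count of carrier genes called, 0 of 41, became 1 with scaling by library size alone, 3 with DESeq2 and 1 with limma-voom, and 0 to 1 when each mouse was left out in turn. With a fold over 1.5 as well it became 1, 2 and 1 under the same 3 settings, and 0 to 0 with a mouse left out. Over all genes the 411 calls became 776, 1685 and 898 under these settings, 132 with the replicate block and 8 to 1102 with a mouse left out. Carrier genes with separated groups numbered 5 to 10 with a mouse left out, with 9, 9 and 10 (21.4%, 21.4% and 23.8%) when aged mouse 1, 2 or 4 was the one left out, against 23.9%, 26.2% and 27.8% of all genes. Their unadjusted calls went from 8 to 13 without aged mouse 1 and to 5 without young mouse 1, where 26.5% and 18.8% of all genes passed. Scaling by library size moved the median of all genes by 0.11 and that of the carrier genes to 0.052. Under it Slc25a5, Slc25a40, Slc25a15, Slc25a1, Slc25a44 and Slc25a16 turned positive, at 0.079, 0.011, 0.038, 0.018, 0.095 and 0.028. Slc25a5 and Slc25a44 were 0.0071 and 0.023 with upper-quartile scaling, and Slc25a44 was 0.0044 and 0.020 without young mouse 3 or 4. Ucp2 was -0.20 with limma-voom and -0.30 without aged mouse 1, and Slc25a22 was -0.26 and -0.50 in the same order. With each mouse left out in turn the ranges were -0.30 to 0.47 for Ucp2, -0.50 to 0.84 for Slc25a22 and -0.048 to 0.020 for Slc25a44. The cause was not tested. Of 593 alternatives for 33 named genes, 575 kept direction and call, 4 gained a call and 14 turned direction. Deviations of mice with the same number correlated at 0.21, 0.04, 0.20 and -0.03. Aged mice 1 to 3 correlated highest with the young mouse of their own number, and aged mouse 4 did not. Whether mice of the same number were paired was not tested. The labels give no link between them, and 0 carrier genes were called with the replicate block.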
